A study of Homo sapiens with 6 samples.

Results

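Transcription after 24 h of MPP+ was compared with that of untreated cells, gene by gene, with the genes of mitochondrial DNA (mtDNA) described apart from nuclear genes. The rule took the libraries labelled SH-SY5Y_24h MPP+ and SH-SY5Y_Control, which are 4 of the 6 libraries of the series, and all genes. Of 67051 gene identifiers in the count tables, 23133 passed a filter on low counts and were tested: 33 mtDNA genes, 20 nuclear copies of mtDNA genes and 23080 other nuclear genes. All groups were SH-SY5Y, an established human neuroblastoma line, and the labels name no genetic change in any of them. The control group received no treatment, the 24 h group received MPP+ at 0.1 mM for 24 h, and the remaining group received 0.1 mM for 0.5 h. Each group had 2 libraries, and the labels do not say whether they came from separate cultures, so p-values reflect how far libraries of a group differed, which may be technical variation alone.

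The assay was PRO-seq, in which polymerases engaged on DNA in isolated nuclei resume transcription in a test tube and the labelled RNA is sequenced. It therefore reads nascent RNA rather than the store of mature RNA. MPP+ is the toxic metabolite of MPTP, is taken up by monoamine transporters and blocks complex I, the first proton pump of the respiratory chain. The mitochondrial genome is transcribed by its own polymerase, POLRMT, into long RNAs that cover most of either strand and are then cut at the tRNAs into rRNAs, mRNAs and tRNAs. In the nucleus, RNA polymerase II makes mRNAs and most long noncoding RNAs, and RNA polymerase III makes tRNAs, Y RNAs, 7SK, U6 and 5S rRNA from short genes, many of which lie inside or beside genes of the other polymerase.

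Levels are given as TMM-scaled CPM, a count relative to the library's total of assigned counts, and changes as log2 fold changes of 24 h over untreated from edgeR's quasi-likelihood fit, with Benjamini-Hochberg adjustment over all 23133 genes and a threshold of 0.05. Untreated libraries held 7044839 and 8381006 assigned counts, and the 24 h libraries 8573601 and 5983066. At this depth and spread, 29.9% of genes simulated with a 1.5-fold change were called, 55.2% at 2-fold and 95.5% at 4-fold, and 12 of the 132 calls were unchanged genes. Changes were placed only in genes above a floor on mean counts, and libraries were drawn independently. These rates therefore do not cover thinly counted genes such as most mtDNA tRNAs. Adrenergic neuroblastoma markers such as HAND2 and DBH summed to 3654 and 3097 CPM in untreated cells and to 3406 and 2739 CPM at 24 h, although TH was at most 1.62 CPM. Mesenchymal neuroblastoma markers summed to between 1463 and 2072 CPM over the 4 libraries, of which TWIST1 made up 1150 to 1759 CPM. In the same list VIM was at most 3.08 CPM and THY1 was at 0. Markers of epithelium and endothelium summed to between 192 and 208 CPM, of which EPCAM made up 126 to 150 CPM. Glial markers summed to at most 50.5 CPM in any of the 4 libraries with SOX10, AQP4 and OLIG2 at 0, and blood markers summed to between 10.9 and 14.4 CPM.

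After 24 h of MPP+, the genes that passed the test were mtDNA genes and copies of them. EdgeR called 16 genes lower (0.0692% of all tested genes) and 0 higher (0%), and at an unadjusted p under 0.05 it had 946 lower (4.09%) and 928 higher (4.01%). Of the 16, 14 were encoded by mtDNA, which is 42.4% of the 33 tested there, and the others were the nuclear copies MTRNR2L8 and MTRNR2L12. All 33 tested mtDNA genes (100%) had an unadjusted p under 0.05 and both 24 h libraries below both untreated ones, the latter against 18.5% of all tested genes. This count carries weight only for the rRNAs and mRNAs, since most tRNAs passed the filter through the untreated libraries alone. A log2 fold change below 0 was found in 49.6% of all tested genes and one above 0 in 50.4%. The median log2 fold change of the mtDNA genes was -2.11, a 4.30-fold lower level, beside a median of 0.00 over the other nuclear genes. Leaving out 1 library at a time, edgeR still called 8 of the 16 with untreated replicate 1 left out, 12 with untreated replicate 2 left out and 10 with either 24 h library left out. MT-RNR1, MT-RNR2, MT-ND2, MT-ND4, MT-ND5, MT-CYB and MT-CO3 kept the call in all 4 of these fits, and MT-ATP6, MT-ND3, MT-ND4L and MT-ND6 lost it in each. From bulk libraries of isolated nuclei, fewer mtDNA templates carried along per nucleus and less RNA per template cannot be told apart.

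Both rRNAs of the mitochondrial ribosome fell, and MT-RNR1 had the largest fold change among the 16 called genes. MT-RNR1 (12S rRNA, hg38 mtDNA 648 to 1601) stood at 90.8 and 73.5 CPM in untreated cells and at 10.7 and 10.6 CPM at 24 h. It fell 7.72-fold, or by 2.95 ± 0.18 in log2 (SE, edgeR, adjusted p = 0.000401). MT-RNR2 (16S rRNA, mtDNA 1671 to 3229) stood at 288 and 233 CPM and then at 51.3 and 43.5 CPM, giving -2.45 ± 0.16 (adjusted p = 0.000401). The untreated libraries of both rRNAs lay far above the 24 h libraries with no overlap, and MT-TV, the valine tRNA between them, had 5.20 and 3.05 CPM and then 0.355 and 0.325 CPM (log2 fold change -3.51 ± 0.52, adjusted p = 0.0862).

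All 7 complex I subunits of mtDNA fell, with log2 fold changes from -2.33 to -1.91 and a median of -2.06. MT-ND5 (mtDNA 12337 to 14148), of the membrane arm that pumps protons, had 161 and 198 CPM untreated and 34.5 and 37.0 CPM at 24 h. Its log2 fold change was -2.33 ± 0.17 (edgeR, adjusted p = 0.000633). MT-ND4 (10760 to 12137), its neighbour in the same arm, had 122 and 152 CPM and then 27.8 and 29.7 CPM, or -2.26 ± 0.16 (adjusted p = 0.000633). These core pump subunits had 24 h pairs well under their untreated pairs. MT-ND1 (3307 to 4262), near the site where quinone binds, had 124 and 142 CPM and then 33.6 and 34.6 CPM, or -1.97 ± 0.19 (adjusted p = 0.00516). MT-ND6 (14149 to 14673) is the only mRNA read from the other strand, and it fell from 19.5 and 22.3 CPM to 6.40 and 4.55 CPM, or by 1.91 ± 0.23 on the log2 scale (adjusted p = 0.0199). MT-ND1 lost the call without 24 h replicate 1. MT-ND2, MT-ND3 and MT-ND4L, all of the membrane arm, had -2.01 ± 0.14, -2.06 ± 0.23 and -2.11 ± 0.27 (adjusted p = 0.000501, 0.0149 and 0.0355), and in none of the 7 genes did the groups overlap.

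Among the other respiratory complexes, MT-CYB (14747 to 15887), the single mtDNA subunit of complex III, changed most. It had 97.3 and 98.0 CPM untreated and 17.6 and 14.1 CPM at 24 h, giving -2.61 ± 0.16 (edgeR, adjusted p = 0.000401). The 3 subunits of complex IV, cytochrome c oxidase, fell as well. MT-CO1 (5904 to 7445) went from 165 and 147 CPM to 50.8 and 31.7 CPM (-1.91 ± 0.19, adjusted p = 0.00572). MT-CO2 (7586 to 8269) went from 90.4 and 78.1 CPM to 21.2 and 10.6 CPM (-2.37 ± 0.25, adjusted p = 0.00842), with its 24 h libraries set farther apart than those of MT-ND4 or MT-ND5. Without untreated replicate 1, MT-CO1 and MT-CO2 were no longer called. MT-CO3 (9207 to 9990) had -2.15 ± 0.20 (adjusted p = 0.00411). Of the ATP synthase pair, MT-ATP6 (8527 to 9207) passed the test at -1.87 ± 0.25 (adjusted p = 0.0396). MT-ATP8 (8366 to 8572), the shortest mtDNA mRNA, had 5.77 and 6.33 CPM and then 2.01 and 1.95 CPM, and at -1.60 ± 0.28 it did not pass (adjusted p = 0.18).

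The tRNAs of mtDNA, which punctuate the long transcripts, were counted thinly. Of 22, 18 were tested and 0 passed. Most of these passed the filter on low counts through the untreated libraries alone, so no count over them is read as support. The 12 tested heavy-strand tRNAs had a median log2 fold change of -2.12 and the 6 tested light-strand tRNAs had a median 4-fold lower level. MT-TL1, the leucine tRNA after MT-RNR2, had 6.78 and 7.62 CPM and then 1.54 and 1.62 CPM (-2.19 ± 0.42, edgeR, adjusted p = 0.279). MT-TA, MT-TY, MT-TD and MT-TT stayed below the filter, with at most 17 counts in any of these libraries. MT-TT had 8 and 14 counts untreated and 10 and 4 at 24 h, and MT-TA had 2 and 16 and then 3 and 2, so their groups overlapped in counts.

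**Figure D1:**
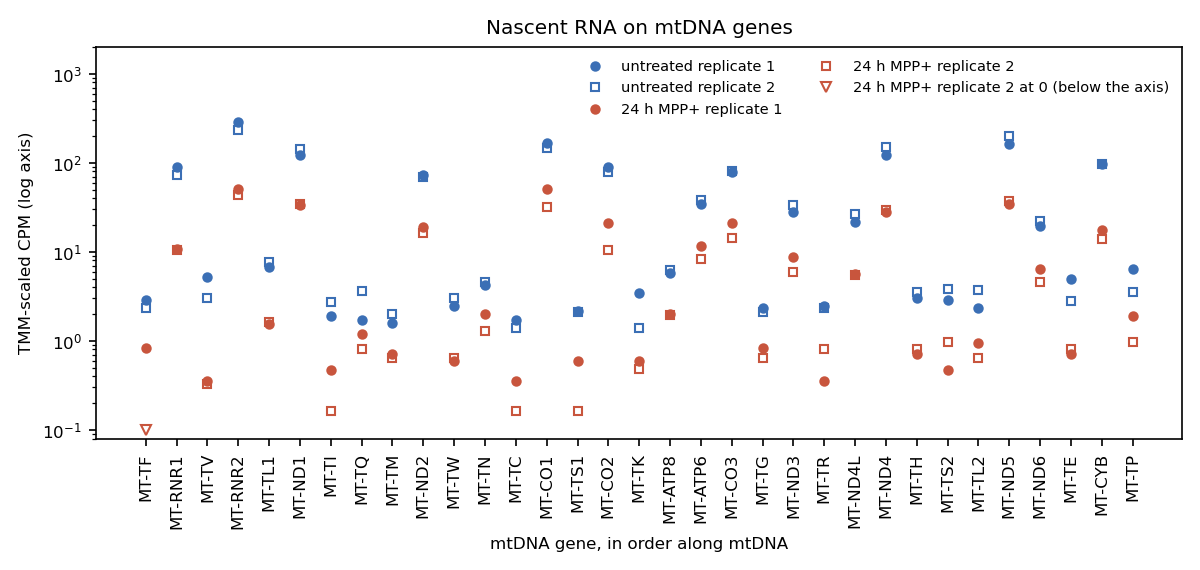
TMM-scaled CPM (log axis) of the 33 tested mtDNA genes in their order along mtDNA, one point per library: blue untreated, red 24 h MPP+, filled replicate 1, open replicate 2, and a triangle where replicate 2 at 24 h had 0 counts (MT-TF). Every gene has both red points below both blue ones, and the widest gap among rRNAs and mRNAs is at MT-RNR1 (90.8 and 73.5 against 10.7 and 10.6 CPM).

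The makeup of mtDNA counts can be read within mtDNA, free of nuclear scaling, and its differences were not tested. rRNAs made up 25.8% and 21% of mtDNA counts in untreated libraries and 18.2% and 19.2% at 24 h. MT-RNR1 alone held 6.19% and 5.04% of mtDNA counts untreated and 3.14% and 3.74% at 24 h, and MT-CYB held 6.64% and 6.72% and then 5.20% and 5.01%. For both genes the 24 h pair lay below the untreated pair. MT-ATP8 was on the other side, with 0.394% and 0.434% untreated and 0.593% and 0.691% at 24 h. Per kilobase, MT-RNR2 had the highest mean level in untreated cells (167 CPM per kb) with MT-ND1 next at 139, and at 24 h MT-ND1 stood first at 35.7 with MT-RNR2 at 30.4 CPM per kb. On that scale MT-RNR1 had 86.1 CPM per kb untreated and 11.1 at 24 h, while MT-ND4 had 99.7 and 20.9.

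The share of all assigned counts on mtDNA averaged 0.146% ± 0.00309 (SD, n = 2) untreated and 0.0312% ± 0.00313 at 24 h, 4.69-fold lower. The 24 h libraries did not overlap the untreated ones, and the exact two-sided permutation test gave p = 0.333, the smallest that its 6 splits allow. Exact Clopper-Pearson 95% intervals per library, which cover counting error only since PCR copies were not separated, ran from 0.141% to 0.151% over the untreated libraries and from 0.0277% to 0.0347% over those of 24 h.

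The 24 h libraries were also set against those of the shorter exposure, a comparison without the untreated libraries. EdgeR called 0 of 23133 genes in either direction between 24 h and 0.5 h, and DESeq2 called 0 as well, but edgeR without the filter on low counts called 29 higher and 44 lower, and the fit with a replicate-number term given in the closing section called more. At an unadjusted p under 0.05, edgeR had 648 genes higher at 24 h (2.80%) and 838 lower (3.62%). The 13 mtDNA mRNAs had a median log2 fold change of 0.08 for 24 h over 0.5 h, and 10 of them lay above 0. MT-RNR1 lay on the other side, at 16.6 and 21.8 CPM after 0.5 h against 10.7 and 10.6 CPM at 24 h (-0.85 ± 0.19, adjusted p = 0.754). MT-CYB had 20.3 and 27.0 CPM after 0.5 h and 17.6 and 14.1 CPM at 24 h (-0.55 ± 0.17, adjusted p = 0.754).

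The nuclear genes that serve mtDNA transcription did not pass the test. Of 26 listed genes for mitochondrial transcription and mtDNA copying, 24 were tested and 0 were called, with a median log2 fold change of -0.07. Without overlap, 8 (33.3%) lay lower and 2 (8.33%) higher, against 18.4% and 18.9% of other nuclear genes. POLRMT, the mitochondrial RNA polymerase, had 28.6 and 34.4 CPM untreated and 25.1 and 31.0 CPM at 24 h (-0.18 ± 0.16), so its groups overlapped. TFAM, which bends mtDNA at promoters and packages it, had 49.9 and 47.5 CPM and then 53.3 and 52.6 CPM (0.12 ± 0.10, edgeR, adjusted p = 0.815). TFB2M, which opens the promoter, had -0.07 ± 0.14, the elongation factor TEFM 0.07 ± 0.16, and the helicase TWNK -0.23 ± 0.14. The largest size in this list was -0.28 ± 0.11 in LIG3, the mtDNA ligase.

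Nuclear copies of mtDNA genes are old insertions of mtDNA into chromosomes, and reads cannot be placed on them with certainty where they match mtDNA. How the authors treated reads with several matches is not given in the sources used here. Of 417 such copies in the tables, 20 passed the filter, several of them through the untreated libraries alone. MTRNR2L8 (chromosome 11, 10507887 to 10509189), a copy of MT-RNR2, had 24.7 and 20.3 CPM untreated and 5.80 and 6.01 CPM at 24 h (-1.93 ± 0.21, edgeR, adjusted p = 0.0105). MTRNR2L12 (chromosome 3, 96617188 to 96618236) had 29.3 and 19.9 CPM and then 5.45 and 2.27 CPM (-2.61 ± 0.34, adjusted p = 0.0391). MT-RNR2 itself had -2.45. The call of MTRNR2L8 was lost without untreated replicate 1 or either 24 h replicate, and that of MTRNR2L12 without untreated replicate 1 or 24 h replicate 2.

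Aligned to their mtDNA gene, the copies fell into 2 sets, a division that was seen after their values were known and that describes only the copies past the filter, some of which had to be high in untreated libraries to be tested. The 14 copies with -1.93 or less, at 9 places in the genome, shared 79.7% to 96% of aligned bases with the mtDNA gene and held an identical run of 37 to 99 bases. The other 6, at 4 places, shared 73% to 78.2% with identical runs of 14 to 25 bases, and their log2 fold changes lay between -0.36 and 0.64. The copies of MT-CO1 show the contrast within one family. MTCO1P40 (chromosome 17) is 96% identical to MT-CO1, had 10.2 and 12.4 CPM and then 4.26 and 1.14 CPM (-1.98), and was called lower by DESeq2 (adjusted p = 0.0462) but not by edgeR (0.302). MTCO1P22 (chromosome 5), 86% identical, had -2.38. MTCO1P1 (chromosome 21), 74% identical, had 1.15 and 1.41 CPM and then 1.30 and 0.649 CPM (-0.34). The same 90 bases of MT-CO1 (positions 916 to 1005), MTCO1P40 and MTCO1P1 are given from the GENCODE 29 transcripts to show how the copies differ, with capitals for bases that differ from MT-CO1. There are 2 differences in MTCO1P40 and 17 in MTCO1P1.
MT-CO1: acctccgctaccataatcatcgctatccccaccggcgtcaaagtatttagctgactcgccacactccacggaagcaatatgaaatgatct
MTCO1P40: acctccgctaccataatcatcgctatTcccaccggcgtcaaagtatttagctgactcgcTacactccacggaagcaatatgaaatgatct
MTCO1P1: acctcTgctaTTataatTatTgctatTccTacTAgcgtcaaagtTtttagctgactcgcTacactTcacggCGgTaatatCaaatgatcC

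**Figure D2:**
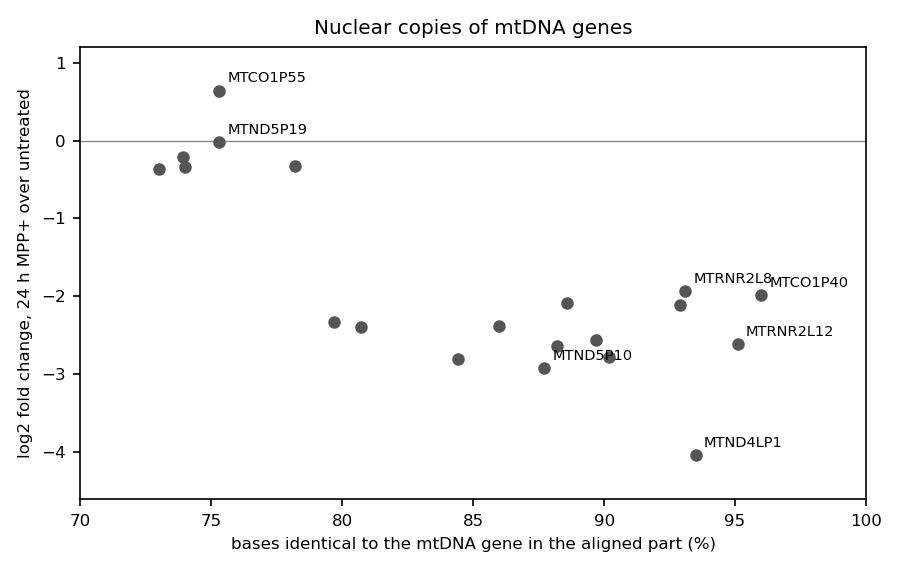
Log2 fold change (24 h MPP+ over untreated) of the 20 tested nuclear copies against the percent of aligned bases identical to the mtDNA gene, one point per copy. The 14 copies at 79.7% identity or more lie at -1.93 or below, and the 6 at 78.2% or less lie between -0.36 and 0.64.

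No other nuclear gene passed the edgeR test among 23080, while 928 (4.02%) had an unadjusted p under 0.05 and were higher and 899 (3.90%) were lower. That count depends on the fit. DESeq2 called 13 nuclear genes higher (0.0454% of 28641 genes with an adjusted p) and 17 genes lower (0.0594%), all of them mtDNA genes or copies, edgeR without the filter on low counts called 130 nuclear genes higher (0.37%) and 73 lower beside mtDNA genes and copies, and a fit with a term for the replicate number, given in the closing section, called more. The authors' deposited table for this comparison lists 24 genes, of which 16 are the same genes called lower here. Its other 8 are higher at 24 h: AL592295.4, CFAP418-AS1 (listed as C8orf37-AS1), LINC01962, HES7, LINC02739, SLC4A10, CTC1 and ANKMY2. In the gene bounds of the authors' deposited table, 6 of those 8 contain a nuclear tRNA gene of RefSeq (GRCh38.p14).

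Nuclear tRNA genes are transcribed by RNA polymerase III from a promoter inside the tRNA sequence, whose downstream part, the B box, has the common core GTTCNANNC. Of 443 nuclear tRNA genes in RefSeq, 129 names lie inside 69 of the tested genes of RNA polymerase II (out of 86 such genes in the tables, with 17 below the filter on low counts). The tRNA genes were not themselves counted, and the strand setting of the authors' counting is not given in the sources used here, so a count of such a gene can include RNA of the tRNA inside it, on either strand. The 4 noncoding hosts AL592295.4, AC108134.2, LINC00324 and AL049796.1 carry 6 tRNA genes in annotated exons, and these are given from GENCODE 29 transcripts, with capitals for that core, to show what the hosts carry. The core was found in all 6 of them, which tests nothing, since it is common to tRNA genes. The strand printed for each is the one on which the core was found, in TRV-CAC1-1 and TRE-TTC4-2 opposite to the host AL592295.4. On either strand the core was also found in 608 of 35116 windows of 73 bases from RefSeq promoters (1.73%).
TRV-CAC1-1 (chr1:161399700-161399772, minus strand, in AL592295.4): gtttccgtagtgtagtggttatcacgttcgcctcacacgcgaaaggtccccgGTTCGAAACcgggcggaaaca
TRE-TTC4-2 (chr1:161422093-161422164, minus strand, in AL592295.4): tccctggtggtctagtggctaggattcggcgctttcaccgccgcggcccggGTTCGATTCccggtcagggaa
TRK-CTT3-1 (chr16:3157405-3157477, minus strand, in AC108134.2): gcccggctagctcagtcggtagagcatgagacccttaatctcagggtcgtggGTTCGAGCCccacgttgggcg
TRP-CGG1-3 (chr17:8222833-8222904, minus strand, in LINC00324): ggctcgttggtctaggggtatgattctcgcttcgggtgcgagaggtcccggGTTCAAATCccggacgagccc
TRW-CCA1-1 (chr17:8220869-8220940, minus strand, in LINC00324): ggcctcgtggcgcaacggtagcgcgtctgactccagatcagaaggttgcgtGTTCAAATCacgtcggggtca
TRR-TCT1-1 (chr1:93847573-93847657, plus strand, in AL049796.1): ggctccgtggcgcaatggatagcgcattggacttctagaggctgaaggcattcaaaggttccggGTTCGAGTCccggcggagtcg

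The genes that contain a tRNA gene leaned higher at 24 h as a group. Of the 69 tested, 53 had a log2 fold change above 0 (against 50.6% of the other nuclear genes), and 41 (59.4%) had both 24 h libraries above both untreated ones, against 18.9% of the other nuclear genes as a whole. Both 24 h libraries lay below in 9 (13%, against 18.4%). Their median log2 fold change was 0.26, beside 0.00, and 33 had an unadjusted p under 0.05 on the higher side (21 without 24 h replicate 1) and 3 on the lower side, against 4.02% and 3.90% of the other nuclear genes, with 0 past the adjusted threshold. The median was 0.20 over the 33 protein-coding members, 0.30 over the 20 lincRNAs and 0.30 over the 16 of other types, whereas all tested protein-coding genes had -0.01 and all lincRNAs 0.07. Among the 63 members with a mean of at least 50 counts, the median was 0.31. The group was noticed in these data, so these counts describe it and test nothing, and 9 members share a tRNA gene name with another member.

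Nearness to a tRNA gene was described the same way. Genes that contain no tRNA gene but end within 1 kb of one (46 tested) had a median log2 fold change of 0.04, and 7 of them (15.2%) lay higher without overlap. Those 1 to 10 kb away (90) had a median of -0.04 and 8 (8.89%), and those over 10 kb away (21407) had 0.00 and 18.7%. The difference between these classes was not tested.

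**Figure D3:**
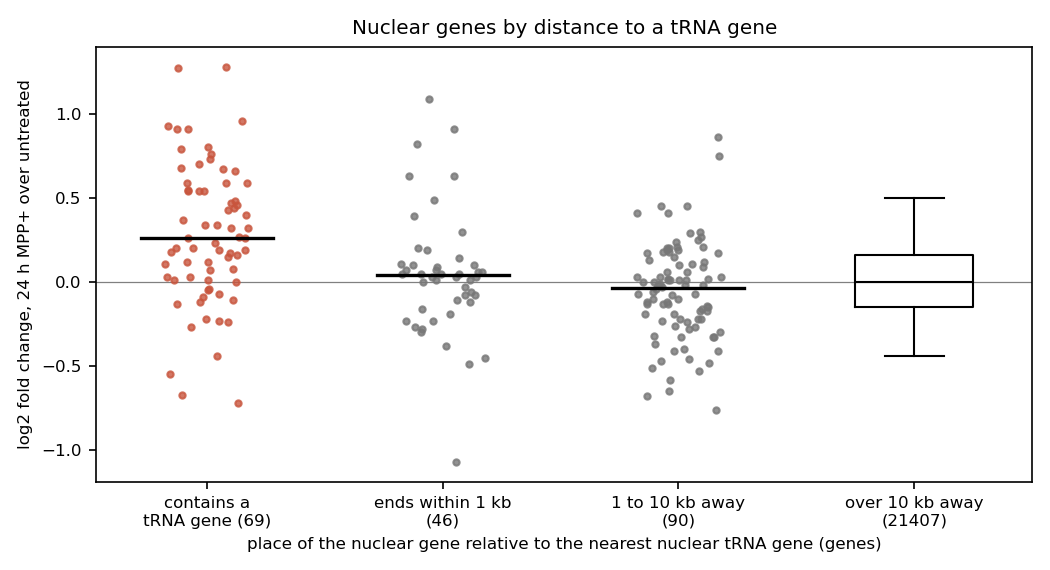
Log2 fold change (24 h MPP+ over untreated) of nuclear genes by their place relative to the nearest nuclear tRNA gene. Points are genes and thick bars medians; the box for the 21407 genes over 10 kb away spans the quartiles with whiskers at the 5th and 95th percentiles. The 69 genes that contain a tRNA gene have a median of 0.26, and the other classes lie at 0.04, -0.04 and 0.00.

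Of the single genes, AL592295.4 (ENSG00000283696.1, chromosome 1, 161399409 to 161422424), the lincRNA with a valine and a glutamate tRNA gene printed above, had 78.8 and 132 CPM untreated and 272 and 241 CPM at 24 h. Both 24 h libraries lay above both untreated ones, which differed from each other as well, and the level was 2.43-fold higher (log2 1.28 ± 0.20, edgeR, adjusted p = 0.116). DESeq2 called it (adjusted p = 9.43e-07), and edgeR did so without untreated replicate 2 (1.69, adjusted p = 0.00589). HES7 (chromosome 17, 8120590 to 8124092), a repressor of the segmentation clock that contains an arginine tRNA gene, had 15.4 and 18.8 CPM and then 50.3 and 31.8 CPM (1.27 ± 0.23, adjusted p = 0.215). Of the 4 edgeR fits that leave out a library, HES7 passed in the one without 24 h replicate 2 (1.55, adjusted p = 0.0498), and it stood at 0.89 without 24 h replicate 1.

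Other members showed the same order of libraries with smaller folds. CFAP418-AS1, a long noncoding gene with a serine tRNA gene, had 114 and 131 CPM and then 256 and 204 CPM (0.91 ± 0.13, edgeR, adjusted p = 0.0752). LINC01962 (chromosome 5) had 183 and 239 CPM and then 379 and 354 CPM (0.80 ± 0.14, adjusted p = 0.189). CTC1, of the complex that protects telomeres, holds 3 tRNA genes and had 139 and 167 CPM and then 264 and 244 CPM (0.73 ± 0.12, adjusted p = 0.165). In all of these genes the groups did not overlap. LINC00324, CTC1's neighbour with 4 tRNA genes, had 183 and 201 CPM and then 292 and 268 CPM (0.54 ± 0.11, adjusted p = 0.287). LTA4H, which makes leukotriene B4, had 134 and 182 CPM and then 255 and 259 CPM (0.70 ± 0.14, adjusted p = 0.302), and AC108134.2 had 25.3 and 38.3 CPM and then 57.9 and 52.3 CPM (0.79 ± 0.19, adjusted p = 0.456). DESeq2 called 6 members, namely AL592295.4, CFAP418-AS1, LINC01962, HES7, CTC1 and LTA4H.

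Not every member followed. AL592295.3, the lincRNA with the most tRNA genes (24, one shared with AL592295.4, which it overlaps), had 794 and 603 CPM untreated and 910 and 679 CPM at 24 h (0.19 ± 0.20), so its groups overlapped. AL669831.3 had 52.7 and 58.6 CPM untreated and 38.0 and 38.0 CPM at 24 h (-0.55 ± 0.12, edgeR, adjusted p = 0.33), and NOC2L had 69.0 and 61.6 CPM and then 51.2 and 45 CPM (-0.44 ± 0.14). ZNF767P, which holds 7 tRNA genes, most of them for cysteine, had -0.24 ± 0.11, and VAC14, with 3 glycine tRNA genes, -0.27 ± 0.12. Apart from AL592295.3, these genes lay lower without overlap. Relative to 0.5 h, the members again leaned higher at 24 h, with a median of 0.25, 53 of 69 above 0 and 35 (50.7%) higher without overlap against 19.4% of the other nuclear genes; the same 24 h libraries enter both comparisons. AL592295.4 had 148 and 148 CPM after 0.5 h and HES7 21.5 and 18.2 CPM.

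**Figure D4:**
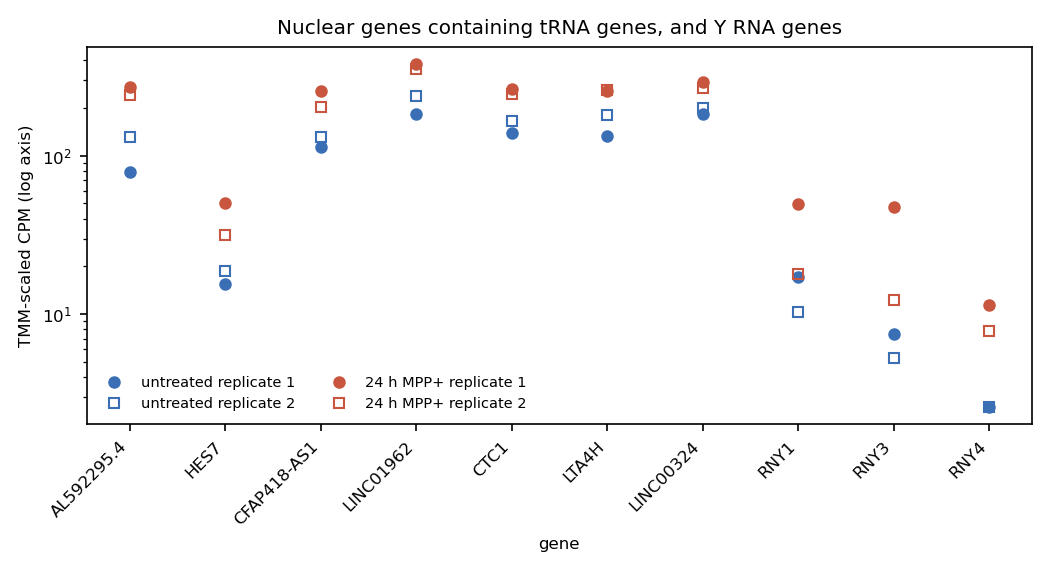
TMM-scaled CPM (log axis) of 7 genes that contain tRNA genes and of 3 Y RNA genes, one point per library: blue untreated, red 24 h MPP+, filled replicate 1, open replicate 2. For each gene both red points lie above both blue ones, for RNY1 by a narrow margin (18 against 17.2 CPM), and the Y RNAs spread more between replicates at 24 h.

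Y RNAs, short RNA polymerase III products bound by the Ro60 protein, stand on their own genes and so carry no host. Few of these short genes were measured: 10 of 812 Y RNA identifiers passed the filter, which a gene could do through the 24 h libraries alone, so their count is not read as support. RNY3 had 7.51 and 5.28 CPM untreated and 47.3 and 12.3 CPM at 24 h (log2 2.26 ± 0.76, edgeR, adjusted p = 0.567). RNY1 had 17.2 and 10.3 CPM and then 49.8 and 18 CPM (1.34 ± 0.56, adjusted p = 0.602), and RNY4 had 2.60 and 2.58 CPM and then 11.4 and 7.79 CPM (1.90 ± 0.36, adjusted p = 0.252). RNY4 was called by DESeq2 (adjusted p = 0.0446). In all 3 genes the groups did not overlap, and replicate 1 lay above replicate 2 in both groups. After 0.5 h replicate 1 was higher too, with RNY3 at 29.3 and 5.63 CPM and RNY1 at 33.4 and 10.6 CPM. Of the 10 tested, 9 lay above 0 and 1 below. The latter, copy ENSG00000201451.1 on chromosome 9, had 1.30 and 1.17 CPM and then 0.355 and 0.487 CPM (-1.55 ± 0.53), on few counts. Copy ENSG00000199410.1 on chromosome X, annotated as Y_RNA, had 2.31 and 0.821 CPM and then 22.6 and 7.47 CPM (3.34 ± 0.94, adjusted p = 0.528). Over its aligned 98 bases it is 89.8% identical to RNY3. The sequences of RNY1, RNY4 and that copy from GENCODE 29 show the family's common start, 11 bases in capitals.
RNY1 (chr7:148987136-148987248, minus strand): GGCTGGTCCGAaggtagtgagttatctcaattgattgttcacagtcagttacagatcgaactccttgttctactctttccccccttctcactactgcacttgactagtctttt
RNY4 (chr7:148963315-148963410, plus strand): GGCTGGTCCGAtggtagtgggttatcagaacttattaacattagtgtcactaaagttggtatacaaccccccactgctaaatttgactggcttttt
Y_RNA (chrX:16912215-16912317, minus strand): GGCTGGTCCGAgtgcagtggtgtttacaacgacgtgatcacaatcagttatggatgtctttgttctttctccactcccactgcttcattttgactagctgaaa

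Other short RNA genes were as sparse. Of 294 identifiers of 7SK and its copies, 8 passed the filter on low counts, which a gene could do through the 24 h libraries alone. Their median log2 fold change was 0.93, and 4 (50%) lay higher without overlap against 18.9% of other nuclear genes. That count is not read as support. RN7SL3, of the signal recognition particle, had 7.36 and 7.97 CPM and then 17.3 and 12.3 CPM (0.96 ± 0.23), while the median of its 7 tested genes and copies was 0.08. Of these 7, 3 (42.9%) lay higher and 1 (14.3%) lower without overlap, against 18.9% and 18.4% of other nuclear genes. The 31 tested 5S rRNA genes and copies had a median of 0.23, and 4 (12.9%) lay higher without overlap against 18.9% of other nuclear genes. The U6 genes RNU6-2, RNU6-7 and RNU6-8, of the spliceosome, had log2 fold changes of 0.47, 0.70 and 0.84 with overlapping groups, and the U6atac gene RNU6ATAC had 3.32 and 3.52 CPM and then 9.48 and 5.20 CPM (1.12 ± 0.44). The median of the 14 tested U6 genes and copies was 0.64 with all libraries and -0.06 without 24 h replicate 1. VTRNA1-3, a vault RNA also made by RNA polymerase III, had 8.81 and 6.80 CPM and then 6.52 and 8.44 CPM (-0.07 ± 0.25), so it did not share the order of the Y RNAs. U1 genes and copies, made by RNA polymerase II, had a median of -0.23 over 32 tested.

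Among nuclear genes without a tRNA gene inside their GENCODE 29 bounds, those with the smallest p on the higher side were LINC02739, SLC4A10, COLQ and HSPB1. SLC4A10, a bicarbonate transporter of neurons, had 70.2 and 84.2 CPM untreated and 147 and 125 CPM at 24 h (0.82 ± 0.12, edgeR, adjusted p = 0.0862). COLQ, the collagen tail of acetylcholinesterase, had 35.8 and 43.6 CPM and then 69.1 and 66.2 CPM (0.77 ± 0.12, adjusted p = 0.126). HSPB1, a small heat shock protein, had 27.7 and 34.4 CPM and then 55.6 and 52.8 CPM (0.80 ± 0.13, adjusted p = 0.146). DESeq2 called all 3, with adjusted p = 0.00182, 0.0469 and 0.0498. LINC02739, which contains a lysine tRNA gene in the bounds of the authors' deposited table but ends 306 bases from it in GENCODE 29, had 75.5 and 93.0 CPM and then 157 and 140 CPM (0.82 ± 0.12, adjusted p = 0.0862).

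On the lower side the smallest p belonged to MEX3A, an RNA-binding ubiquitin ligase, with 115 and 103 CPM and then 67.6 and 73.1 CPM (-0.63 ± 0.10, edgeR, adjusted p = 0.138). ATXN7L2 had 65.8 and 60.4 CPM and then 42.3 and 36.7 CPM (-0.67 ± 0.12, adjusted p = 0.219). TSC2, which restrains the growth kinase mTORC1, had 122 and 117 CPM and then 85.8 and 85.9 CPM (-0.48 ± 0.09, adjusted p = 0.286). MYBBP1A, a nucleolar protein of ribosome synthesis, and TCF3, a transcription factor, had -0.54 ± 0.10 and -0.55 ± 0.11. None of these was called by DESeq2, and in all 5 the groups did not overlap.

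The 37 nuclear gene lists held 907 tested genes, of which 0 passed the adjusted threshold, and 22 lists had a median log2 fold change between -0.1 and 0.1. S phase and DNA replication genes had the lowest list median, -0.22. Of 44 tested, 41 lay below 0, and 19 (43.2%) lay lower without overlap against 18.4% of other nuclear genes. On that side 14 of the 44 had an unadjusted p under 0.05 in edgeR, against 3.9% of other nuclear genes. MCM5, a subunit of the replicative helicase, had 111 and 80.0 CPM untreated and 60.3 and 59.7 CPM at 24 h (-0.66 ± 0.15, edgeR, adjusted p = 0.383), and POLE, of the leading-strand polymerase, had 145 and 114 CPM and then 91.4 and 84.7 CPM (-0.55 ± 0.13). Untreated replicate 1 was the highest library for both genes, and without it the list median was -0.07. G2 and M phase genes had a median of 0.01 over 28.

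Replication-dependent histones, which are transcribed in S phase, had a median above 0. Of 52 tested, 49 lay above 0 and 16 (30.8%) lay higher without overlap against 18.9% of other nuclear genes, with a median of 0.30. H2AC14 had 78.2 and 82.0 CPM untreated and 155 and 102 CPM at 24 h (0.69 ± 0.21, edgeR, adjusted p = 0.54), and H4C12 had 108 and 107 CPM and then 174 and 125 CPM (0.48 ± 0.15, adjusted p = 0.555). The size rested on one library: 24 h replicate 1 was the highest for both genes, and without it the list median was -0.03. Histone genes of a kind are close copies, so counts can be shared among them.

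Genes of protein synthesis lay slightly lower. Of 70 cytosolic ribosomal protein genes, 61 lay below 0 with a median of -0.15 and 23 (32.9%) lower without overlap against 18.4% of other nuclear genes, yet the member with the smallest p, RPS28, had 19.9 and 22.0 CPM and then 34.8 and 32.8 CPM (0.69 ± 0.14, edgeR, adjusted p = 0.302). The list median was -0.04 without untreated replicate 1 and -0.27 without untreated replicate 2. RPL4 had 103 and 94.8 CPM and then 77.9 and 74.0 CPM (-0.38 ± 0.10). Aminoacyl-tRNA synthetases, which load tRNAs with amino acids, had a median of -0.15, with 17 of 20 below 0 and 9 (45%) lower without overlap, also against 18.4%. WARS1 had -0.46 ± 0.12 and AARS1 -0.35 ± 0.11. Ribosome biogenesis genes had a median of -0.13, with 24 of 29 below 0, and one of -0.08 without untreated replicate 1.

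Nuclear genes for mitochondrial proteins lay near or slightly under 0. Mitochondrial chaperones, proteases and import factors had a median of -0.17, and 11 of 23 (47.8%) lay lower without overlap against 18.4% of other nuclear genes. Without 24 h replicate 2 that median was -0.08. TIMM44, which anchors the import motor, had 69.9 and 70.4 CPM untreated and 49.2 and 55.0 CPM at 24 h (-0.43 ± 0.10, edgeR, adjusted p = 0.457), and LONP1, the matrix protease, had 257 and 205 CPM and then 181 and 180 CPM (-0.35 ± 0.12). Nuclear complex I subunits had a median of -0.10 over 32, of which 22 lay below 0, and it was 0.03 without untreated replicate 2. The complex I member with the smallest p was NDUFS7, which contains a tRNA gene and had 24.1 and 18.8 CPM and then 45.6 and 25.8 CPM (0.76 ± 0.30, adjusted p = 0.602). Mitochondrial ribosomal proteins had -0.07 over 60 and subunits of complexes II to V -0.07 over 29. All of these list sizes lay far from the -2.11 of the mtDNA genes. PINK1, a kinase of mitochondrial quality control mutated in familial parkinsonism, had 12.1 and 17.2 CPM and then 10.1 and 11 CPM (-0.49 ± 0.23, adjusted p = 0.634).

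Stress responses were small, and hypoxia and p53 genes leaned higher. Of 22 hypoxia response genes, 13 (59.1%) lay higher without overlap against 18.9% of other nuclear genes, with a median of 0.21. ADM, which encodes the peptide adrenomedullin, had 55.9 and 54.3 CPM untreated and 104 and 82.0 CPM at 24 h (0.76 ± 0.21, edgeR, adjusted p = 0.519). P4HA1, a collagen prolyl hydroxylase, had 98.7 and 99.3 CPM and then 149 and 124 CPM (0.47 ± 0.11, adjusted p = 0.439). BHLHE40, a transcriptional repressor, was almost silent untreated at 0.289 and 0.117 CPM and had 1.42 and 1.46 CPM at 24 h (2.80 ± 0.61, adjusted p = 0.357), a change that rests on few counts. It passed the filter on low counts through the 24 h libraries alone, so its place among the 13 is not read as support. Of 23 p53 targets, 12 (52.2%) lay higher without overlap against the same 18.9%, with a median of 0.19. CDKN1A, the cell cycle inhibitor p21, had 39.0 and 51.4 CPM and then 57.1 and 66.2 CPM (0.44 ± 0.15), and BTG2 had 71.9 and 89.9 CPM and then 151 and 107 CPM (0.68 ± 0.17).

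Targets of ATF4, which acts in the integrated stress response, showed no common direction. Their median was -0.06 over 27, with 6 (22.2%) higher and 9 (33.3%) lower without overlap, against 18.9% and 18.4% of other nuclear genes: STC2 had 87.2 and 69.3 CPM and then 114 and 109 CPM (0.51 ± 0.16), while SLC38A2 had 99.3 and 84.4 CPM and then 70.8 and 66.7 CPM (-0.41 ± 0.11). NRF2 and antioxidant genes were split as well, with a median of 0.06. HMOX1, heme oxygenase, had 6.93 and 9.62 CPM and then 11.1 and 15.7 CPM (0.68 ± 0.25), and GPX4, which reduces lipid peroxides, had 19.9 and 24.9 CPM and then 15.6 and 16.9 CPM (-0.47 ± 0.17). The unfolded protein response of the endoplasmic reticulum had a median of -0.05 over 22, glycolysis 0.06 over 22, and heat shock genes 0.15 over 20. Neuroblastoma identity factors had -0.09 over 21 and genes of catecholamine synthesis and transport -0.08 over 17. DBH, which makes noradrenaline from dopamine, had 230 and 252 CPM untreated and 198 and 221 CPM at 24 h (-0.20 ± 0.12, edgeR, adjusted p = 0.715).

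**Figure D5:**
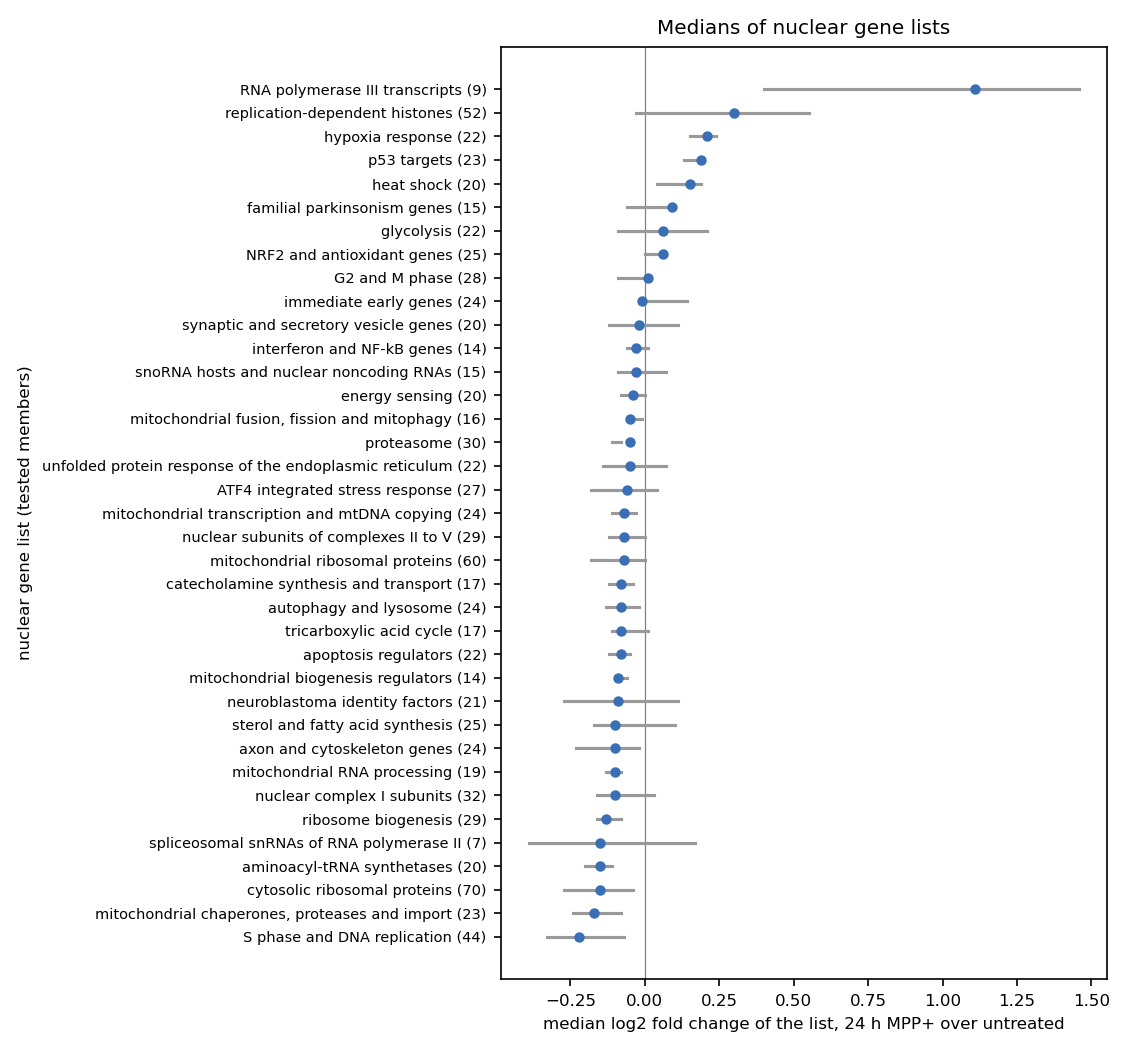
Median log2 fold change (24 h MPP+ over untreated) of each nuclear gene list with its number of tested members; the grey line runs from the lowest to the highest median when 1 of the 4 libraries is left out. Medians run from -0.22 (S phase) to 1.11 (RNA polymerase III transcripts, 9 tested members), and those of 18 of the 37 lists keep 1 sign with all libraries and without each, 4 above 0 and 14 below.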

How the data were processed

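PRO-seq of SH-SY5Y was measured in 6 libraries, 2 per group. Per the submitters' processing notes, which give no order or settings, the authors named build hg38 and used Bowtie2 2.4.2, featureCounts 2.0.1, cutadapt 1.16.5, DESeq2 2.11.40.6, deepTools 3.5.1.0.0 and SAMtools 1.13. The deposited count tables hold whole-number read counts per gene. The authors' deposited comparison table gives log2 fold changes, p-values and a test score, and its sign was read from the counts. Not given in the sources used here were strand, multiple-match settings and the annotation release, so counts of antisense, overlapping and multi-copy genes are uncertain.

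From the counts, edgeR 4.0.16 (R 4.3.3) fitted all 6 libraries by group with TMM scaling, filterByExpr and the quasi-likelihood test, which was tested on simulated data. DESeq2 1.42.0, other scalings, filters, a replicate term and leaving out each library were alternatives. Symbols came from the gene table (42061) and GENCODE 29 (16489), and 8501 identifiers had no name. tRNA genes were those of RefSeq GRCh38.p14, intersected with GENCODE 29 gene bounds, and copies were aligned with Biopython 1.88 (local alignment). Depth ranged from 5983066 to 11707612 counts, and counting intervals cover counting error only.

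Genes named were every mtDNA mRNA and rRNA, every nuclear gene called, the 12 genes with the smallest p in each direction (mean of at least 2 CPM, groups not overlapping), up to 3 genes per list with the smallest p, and genes of the authors' deposited table. Text left some of these out. tRNA-containing genes, short RNA genes, copies and the remaining named genes were chosen after their values were seen, and the members and lists were chosen with earlier results of these data known. A few genes and sequences are not reported here.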

Additional observations from a re-analysis of the deposited data

How the results depend on the processing

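The 0 genes called higher at 24 h than untreated became 130 without the filter on low counts and 13 with DESeq2, and the 16 called lower became 115 without the filter (73 of them other nuclear genes). Leaving out each library in turn gave 0 to 1 higher (AL592295.4 without untreated replicate 2, HES7 without 24 h replicate 2) and 8 to 12 lower, and a mean of at least 50 counts gave 13 lower, without MT-ATP6, MT-ND4L and MTRNR2L12. Against 0.5 h, 0 higher and 0 lower became 29 and 44 without the filter. The cause was not tested. All 16 lower genes kept their call with RLE or upper-quartile scaling, DESeq2, no filter or only the 4 libraries compared. The labels give replicate numbers 1 and 2 to every group but nothing that pairs them. Deviations of same-numbered libraries correlated at 0.49 to 0.54 over 15625 genes. With only 2 numbers these correlations cannot decide whether same-numbered libraries are paired. With the replicate number as a block, edgeR called 301 higher (1.3% of all tested genes) and 384 lower (1.66%) against untreated. The lower ones included all 16 and 342 other nuclear genes. Among the higher were 29 of the 69 tested tRNA-containing genes, beside the 1.3% of all tested genes. Against 0.5 h this fit called 116 higher and 296 lower. The mtDNA median log2 fold change stayed between -2.21 and -1.99 and the fold of the mtDNA share between 4.38 and 5.04. No called result changed direction under these settings. The count of tRNA-containing genes at an unadjusted p under 0.05, an alternative added after seeing the data, was 21 without 24 h replicate 1, against 33. Depth left 4 mtDNA tRNAs untested, and 55.2% of simulated 2-fold changes were called in genes above the simulation's floor on mean counts. A lone library left in a group is assumed to vary like the others.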

Other observations

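Several gene groups not described above lay close to the nuclear median. For 24 tested immediate early genes the median log2 fold change was -0.01, with 7 (29.2%) higher and 4 (16.7%) lower without overlap, against 18.9% and 18.4% of other nuclear genes. DUSP5, a phosphatase of ERK, had 18.6 and 16.3 CPM untreated and 35.8 and 22.7 CPM at 24 h (0.76 ± 0.22, edgeR, adjusted p = 0.528), and NR4A1, a nuclear receptor, had 0.31 ± 0.10. Proteasome genes had a median of -0.05, with 25 of 30 below 0. Without overlap, 0 lay higher and 8 (26.7%) lower, against the same 18.9% and 18.4%. PSMD3, of the regulatory particle, had 38.1 and 44.8 CPM and then 29.3 and 34.7 CPM (-0.38 ± 0.17). Familial parkinsonism genes had a median of 0.09 over 15, and one of -0.06 without untreated replicate 1. Of the 15, 3 (20%) lay higher and 3 (20%) lower without overlap, near the 18.9% and 18.4% of other nuclear genes.

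The share of tested genes without overlap differed among chromosomes, beside 18.8% higher and 18.5% lower over all tested genes. On chromosome 22, 13.7% lay higher at 24 h and 26.5% lower, on chromosome 19 12.7% and 24.4%, on chromosome 21 13.3% and 27.3%, and on chromosome 16 13.8% and 25.4%. On chromosome 6, 22.2% lay higher and 13.9% lower, and on chromosome 1 21.3% and 15.3%. These shares were not tested.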
